A study of Mus musculus with 4 samples.

Results

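Pkdcc, Medag, Kcne4 and Stc1 are 4 genes whose signals in mouse synovial fibroblasts were raised by IL-1β, low again when the cyclooxygenase inhibitor indomethacin was added, and high once more with the prostacyclin analogue iloprost. They are 4 of the 12393 genes that have a probe set of their own on the array, and 7 of its 20380 probe sets that name 1 gene carry exactly 1 of these symbols. The genes were picked for this pattern on these same arrays, so the values below describe it and give no test of it. The fibroblasts were grown out of knees of naïve DBA/1J mice, which were males aged 8 to 12 weeks, and were passaged 3 to 4 times. They were cultured with 1% serum and treated for 6 h. The vehicle dish received neither cytokine nor drug. The IL-1β dish received 5 ng/ml IL-1β, the indomethacin dish the same IL-1β with 1 µM indomethacin, and the iloprost dish the same IL-1β and indomethacin with 1 µM iloprost. RNA of each group was measured on 1 Affymetrix GeneChip, 4 arrays in all, so no value has an error between dishes. The series title puts the question as the effect of prostacyclin signals on fibroblasts under IL-1β. No dish received iloprost without indomethacin, or either drug without IL-1β, so those effects cannot be given.

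Prostanoids are lipid mediators made from arachidonic acid by the cyclooxygenases. IL-1β induces the cyclooxygenase gene Ptgs2 in synovial fibroblasts, indomethacin blocks the enzyme, and prostacyclin and iloprost act on the receptor encoded by Ptgir, which couples to cAMP synthesis. Pkdcc encodes a secreted tyrosine kinase, also called VLK, that phosphorylates proteins of the secretory pathway and the extracellular space and is needed for skeletal development. Stc1 encodes stanniocalcin, a secreted glycoprotein hormone linked to calcium and phosphate handling. Kcne4 encodes a single-pass membrane protein that binds voltage-gated potassium channels and reduces their current. Medag is named for a part in adipogenesis, the formation of fat cells.

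The DNA before the transcription start is shown for the 3 members that have a window in the RefSeq promoter table of build GRCm38.p6, Pkdcc, Medag and Kcne4. The members move together because they were chosen for the same course, so nothing on shared control is read from it. Each run below is the 250 bases before the start, 5′ to 3′ on the plus strand. Capitals mark matches to the motifs searched for.
Kcne4, chr1:78816661-78816910, plus strand: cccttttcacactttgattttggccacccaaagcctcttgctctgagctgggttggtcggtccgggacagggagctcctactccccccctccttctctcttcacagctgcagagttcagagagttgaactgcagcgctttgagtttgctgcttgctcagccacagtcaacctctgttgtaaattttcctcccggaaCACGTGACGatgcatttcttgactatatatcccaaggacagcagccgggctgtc
Medag, chr5:149411499-149411748, plus strand: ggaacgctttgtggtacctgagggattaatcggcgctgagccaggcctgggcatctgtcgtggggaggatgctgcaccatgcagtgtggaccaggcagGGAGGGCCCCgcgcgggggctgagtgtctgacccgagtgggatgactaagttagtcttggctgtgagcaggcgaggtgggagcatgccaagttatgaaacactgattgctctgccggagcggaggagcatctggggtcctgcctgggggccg
Pkdcc, chr17:83215033-83215282, plus strand: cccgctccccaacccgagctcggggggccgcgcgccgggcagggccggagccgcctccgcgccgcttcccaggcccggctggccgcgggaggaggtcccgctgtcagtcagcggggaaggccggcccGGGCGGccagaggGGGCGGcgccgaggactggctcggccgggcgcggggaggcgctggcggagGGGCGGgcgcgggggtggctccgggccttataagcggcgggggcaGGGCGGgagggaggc
In the Kcne4 window the capitals are the E-box CACGTG, 54 to 49 bases before the start, and the core TGACG of the cAMP response element, 50 to 46 bases before it, which overlap by their shared bases. In the Medag window they are a match to the NF-κB element on the opposite strand, 152 to 143 bases before the start. In the Pkdcc window they are 4 copies of the GC box GGGCGG. A further Medag window, before another start of the gene, held CACGTG 57 to 52 bases before that start.

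The motifs were searched on both strands in the 4 member windows and in all 32851 windows of the same length. The core TGACG stood in 1 of the 4 member windows and in 17.8% of all windows. CACGTG stood in 2 of 4 and in 6.02% of all, GGGCGG in 1 of 4 and in 32.7% of all, and the NF-κB element in 1 of 4 and in 7.25% of all. The full cAMP response element TGACGTCA (1.55% of all windows), the AP-1 element TGANTCA (6.75%), the TATA box TATAAA (12.4%) and the NR4A element AAAGGTCA (1.34%) had no match in the member windows. No motif searched was present in every member window. The windows also differed in base composition. The Pkdcc window was 83.2% G and C, above 99.6% of all windows, while that of Kcne4 was 53.2%, where the median of all windows was 52.4%. The Medag windows were at 62.8% and 44.8%.

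Signals are linear intensities as deposited. Signals under 37.6, which is the 50th percentile over the 4 arrays, were raised to this floor and have no order among themselves. Each log2 ratio was taken after subtracting, per array, the median log2 signal of the 6227 genes that were above the floor throughout, here called the median gene. The median gene was brighter than with vehicle by 0.23 on the IL-1β array, 0.08 on the indomethacin array and 0.09 on the iloprost array, as log2. Probe sets of the same gene gave log2 ratios with an SD of 0.20 to 0.21 per probe set, which is a measure of noise within an array and leaves out differences between dishes.

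Pkdcc, the secreted kinase, had signals of 66.0 in the vehicle dish, 347.1 in the IL-1β dish, 70.3 in the indomethacin dish and 325.1 in the iloprost dish on its brighter probe set. The IL-1β and iloprost arrays were high, and the vehicle and indomethacin arrays were low and close to each other. Its log2 ratio was 2.17 for IL-1β against vehicle, a 4.49-fold difference. It was -2.16 for indomethacin against IL-1β alone and 2.20 for iloprost against indomethacin. The other Pkdcc probe set read 43.2, 175.6, 31.7 and 172.1 in the same order, and only its indomethacin value lay below the floor. That probe set gave log2 ratios of 1.79, -2.08 and 2.19, of which the -2.08 and 2.19 are bounds. Both Pkdcc probe sets carry the suffix that Affymetrix gives to probes matching more than a single transcript.

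Stc1, the secreted hormone, read 32.7, 206.3, 35.9 and 224.1 in the same order of dishes on its brighter probe set. The vehicle and indomethacin signals were both below the floor, so these ratios are bounds. With IL-1β the log2 difference was at least 2.23, with indomethacin at most -2.31, and with iloprost against indomethacin at least 2.57. The other Stc1 probe set did not follow this course. It read 0.7, 9.0, 5.6 and 1.0, below the floor on all 4 arrays. When both Stc1 probe sets were averaged, the same bounds became 1.02, -1.10 and 1.27. The Stc1 pattern thus rests on 1 probe set.

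Kcne4, the potassium channel subunit, has a single probe set, with signals of 43.4 in the vehicle dish, 260.1 in the IL-1β dish, 62.8 in the indomethacin dish and 207.8 in the iloprost dish. The vehicle signal was just above the floor and the lowest of the 4. The log2 ratio was 2.35 with IL-1β, or 5.12-fold, then -1.90 with indomethacin and 1.72 with iloprost against indomethacin. Kcne4 had the highest IL-1β ratio of the 3 members with a measured ratio, and the smallest for iloprost.

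Medag, the adipogenesis gene, read 148.5 in the vehicle dish on its brighter probe set, then 542.2 in the IL-1β dish, 138.2 in the indomethacin dish and 580.4 in the iloprost dish. Again the IL-1β and iloprost arrays were high and the others low. The log2 ratios were 1.64, -1.82 and 2.06 in the order used above. Its other probe set read 142.7, 470.9, 130.4 and 532.8, with log2 ratios of 1.49, -1.70 and 2.02. The Medag probe sets therefore differed by less than the noise between probe sets in each of these comparisons, and none of their values was near the floor.

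**Figure D1:**
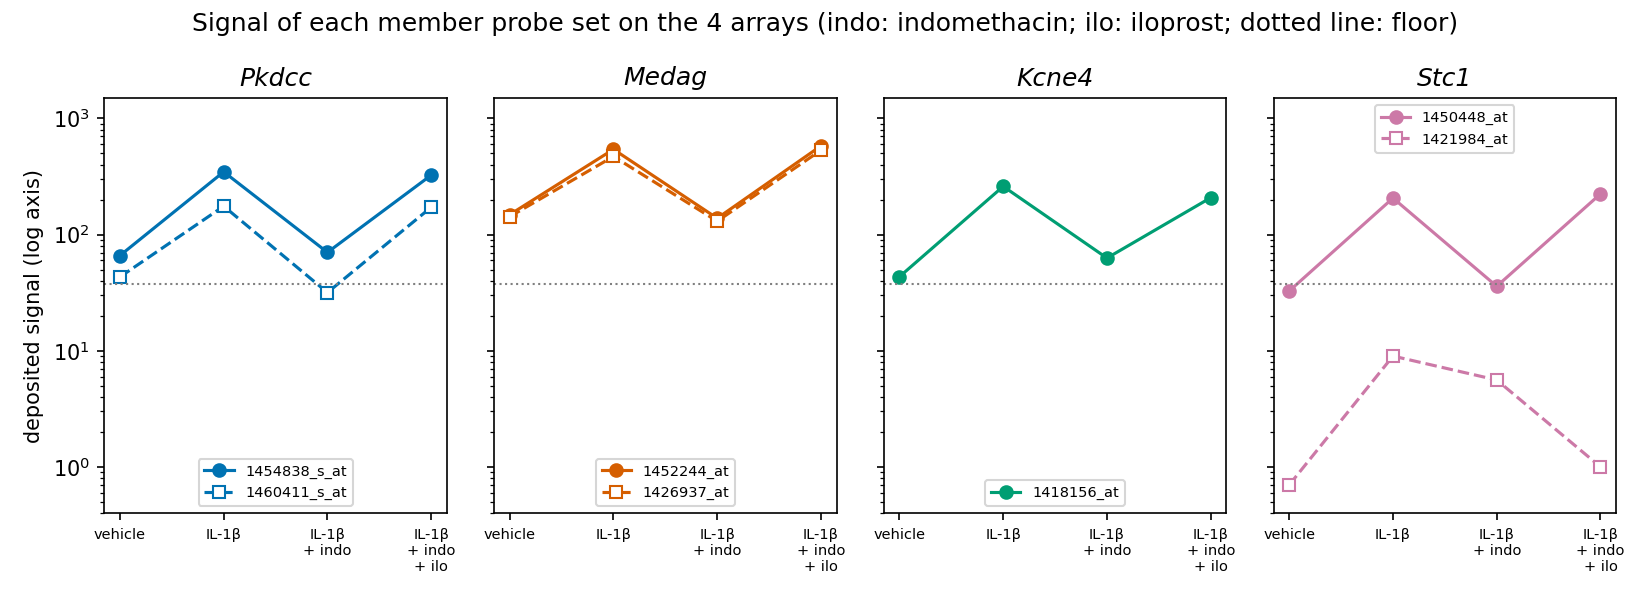
Deposited signal (log axis) of the 7 probe sets on the 4 arrays, with filled circles for the probe set used for each gene, open squares for the other, and the floor of 37.6 as a dotted line. The used probe set of every member is high with IL-1β and with iloprost and low on the other arrays, while the second Stc1 probe set stays below the floor throughout.

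The 4 members were all at least 2-fold higher with IL-1β than with vehicle, as were 1.72% of the 6965 genes measured in that comparison, where 0.56% were lower. All 4 were at least 2-fold lower with indomethacin, as were 0.663% of 6937 genes, and at least 2-fold higher with iloprost against indomethacin, as were 1.97% of 6990 genes. The members were chosen on these contrasts, so nothing is read from their counts. Their log2 ratios ran from 1.64 to 2.35 for the IL-1β comparison, from -2.31 to -1.82 for indomethacin and from 1.72 to 2.57 for iloprost, bounds included. Between the 5th and the 95th percentile, all genes ran from -0.53 to 0.56, from -0.43 to 0.41 and from -0.75 to 0.71. These comparisons share arrays with each other, so noise on a shared array moves both of its ratios.

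**Figure D2:**
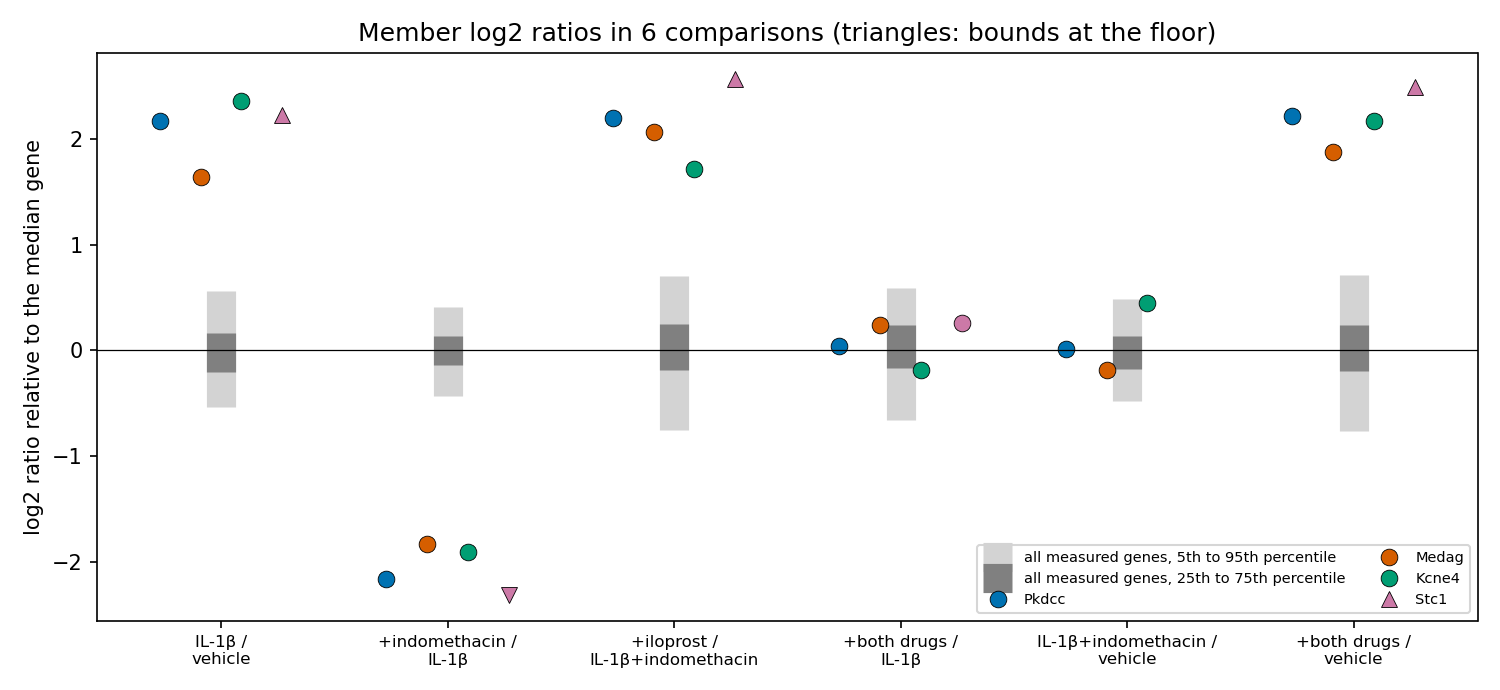
Log2 ratio relative to the median gene (vertical axis) of each member in 6 comparisons (horizontal axis), with pale and dark grey bars for all measured genes between the 5th and 95th and between the 25th and 75th percentile, and triangles for bounds at the floor. Members stand near 2 or -2 in the 3 comparisons that chose them. They stand near 0 for both drugs against IL-1β alone, a ratio that is the sum of those for indomethacin and iloprost and so is no separate result.

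Against IL-1β alone, the dish with both drugs had members close to their IL-1β level, which follows from their choice for signals regained with iloprost. The log2 ratio was 0.05 for Pkdcc, 0.24 for Medag, -0.18 for Kcne4 and 0.26 for Stc1. The SD between probe sets in this comparison was 0.21, so Medag and Stc1 stood slightly beyond it and Pkdcc and Kcne4 within it. On the scale as deposited the values were -0.09, 0.10, -0.32 and 0.12, so the sign for Pkdcc turned with the scale. Only Kcne4 was then beyond the SD, so which genes lay beyond it also depends on the scale. None of the 4 was past 2-fold here, while 0.965% of 7050 genes were at least 2-fold higher and 2.37% lower.

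With indomethacin, Pkdcc and Medag came back to about the vehicle level, while Kcne4 read somewhat above it. Signals lost with indomethacin were part of the members' choice, so this return is no separate result. Against vehicle, the log2 ratio of IL-1β with indomethacin was 0.01 for Pkdcc, -0.18 for Medag and 0.45 for Kcne4, and Stc1 was below the floor on both arrays. None of the 3 was past 2-fold, where 1.29% of 6806 genes were at least 2-fold higher and 0.323% lower. The Kcne4 value, from signals of 43.4 and 62.8, was beyond the SD between probe sets of 0.20, and was 0.53 on the scale as deposited. It lay within the range of -0.47 to 0.48 between the 5th and the 95th percentile of all genes. The share of the IL-1β rise still present with indomethacin was computed on signals scaled to the median gene. It was 8.95% for Kcne4 and 0.211% for the brighter Pkdcc probe set. For the brighter and the dimmer Medag probe set it was -5.66% and -7.47%, where a negative share is a level below vehicle. The dimmer Pkdcc probe set gave -12.4%, but its indomethacin signal of 31.7 lay below the floor and was not raised to it. The size of that share is therefore not read. On the scale as deposited the brighter probe sets gave 1.53% for Pkdcc and -2.62% for Medag, so these small shares depend on the scale. With iloprost added, the share of the rise was 85.1% for Kcne4, 104.1% and 111.2% for the Pkdcc probe sets, and 126.4% and 138.2% for those of Medag. As deposited it was 75.9% for Kcne4, 92.2% for the brighter Pkdcc probe set and 109.7% for the brighter Medag probe set, so Pkdcc crossed its IL-1β level with the scale. Against vehicle, the dish with both drugs had log2 ratios of 2.21 for Pkdcc, 1.88 for Medag, 2.17 for Kcne4 and at least 2.49 for Stc1. In that comparison 2.72% of 6985 genes were at least 2-fold higher and 3.35% lower.

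The full course, at least 2-fold up with IL-1β, down with indomethacin and up with iloprost, was found for 31 genes, 0.458% of the 6768 measured in all 3 comparisons. The smallest of the 3 differences was 2.16 for Pkdcc, 1.72 for Kcne4 and 1.64 for Medag, and for Stc1 it was a bound of at least 2.23. Among the other genes of the 31 that were above the floor on every array, it was 2.85 for Uap1, an enzyme of UDP-N-acetylglucosamine synthesis. It was 2.20 for Procr, the protein C receptor gene, 1.69 for Rdh10, just above Medag, and 1.58 for Thbd, just below Medag. The count depends on the floor: with the floor at the 65th percentile it was 18.

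The comparisons of IL-1β with vehicle and of iloprost with indomethacin share no array. Of 6807 genes with both ratios, 120 were at least 2-fold higher in the first and 135 in the second, and 34 were in both lists. That is 28.3% of the first list and 25.2% of the second. The 4 members are among the 34, as their choice required.

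**Figure D3:**
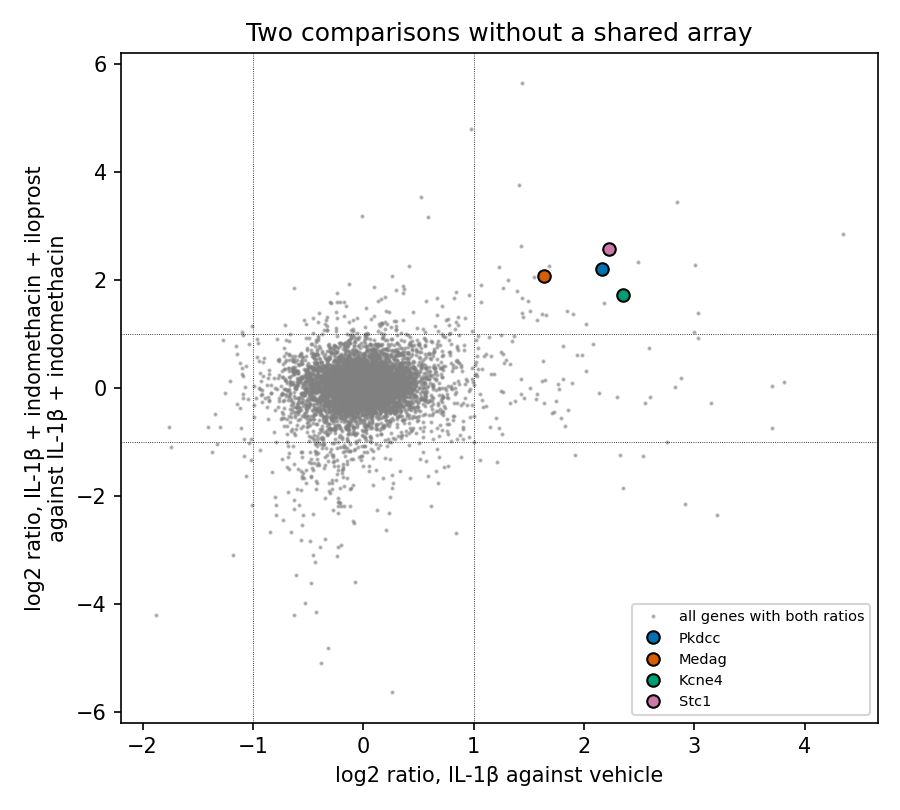
Each point is 1 of 6807 genes, with its log2 ratio for IL-1β against vehicle on the horizontal axis and for iloprost against indomethacin on the vertical axis, both relative to the median gene. Dotted lines mark 2-fold, and the 4 members lie in the upper right, from 1.64 to 2.35 across and from 1.72 to 2.57 up, where Stc1 is a lower bound on both axes.

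Likeness to each member was measured as the root mean square difference of log2 signals over the 4 arrays, after centring each gene on its own mean, among 7147 other genes above the floor on at least 1 array. The members were chosen for their course over these same arrays, so a gene with that course must be close and a flat gene far. The distances are a description, and nothing is read from their contrast with the median gene compared. Medag was closest to Rdh10, a retinol dehydrogenase, at 0.07, where the median gene compared was at 0.94. Rdh10 read 101.8, 383.7, 88.7 and 423.9 in the order vehicle, IL-1β, indomethacin and iloprost. Kcne4 was closest to Thbd, which encodes thrombomodulin, at 0.08 against a median of 1.04. Thbd read 70.4, 373.0, 99.9 and 299.7, and like Kcne4 it was higher with indomethacin than with vehicle and lower with iloprost than with IL-1β alone. Pkdcc was closest to Tnfsf11, the gene of the osteoclast factor RANKL, at 0.07, and Stc1 to Pkdcc, at 0.13.

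Tnfsf11 read 10.9, 198.9, 23.8 and 165.7, so it was below the floor with vehicle and indomethacin, and its likeness to Pkdcc depends on the floor. Without a floor, Stc1 was the closest to Pkdcc at 0.10, and Tnfsf11 was not among its closest 4. Rdh10 stayed closest to Medag, Thbd to Kcne4 and Pkdcc to Stc1. Among the closest 4 with the floor were also the cytokine genes Il11 (for Pkdcc and Stc1) and Il33 (for Kcne4), the chemokine receptor gene Ackr3 and the vitamin D receptor gene Vdr (both for Medag). Of the 16 pairs of a member and a close gene, 11 were the same without a floor.

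**Figure D4:**
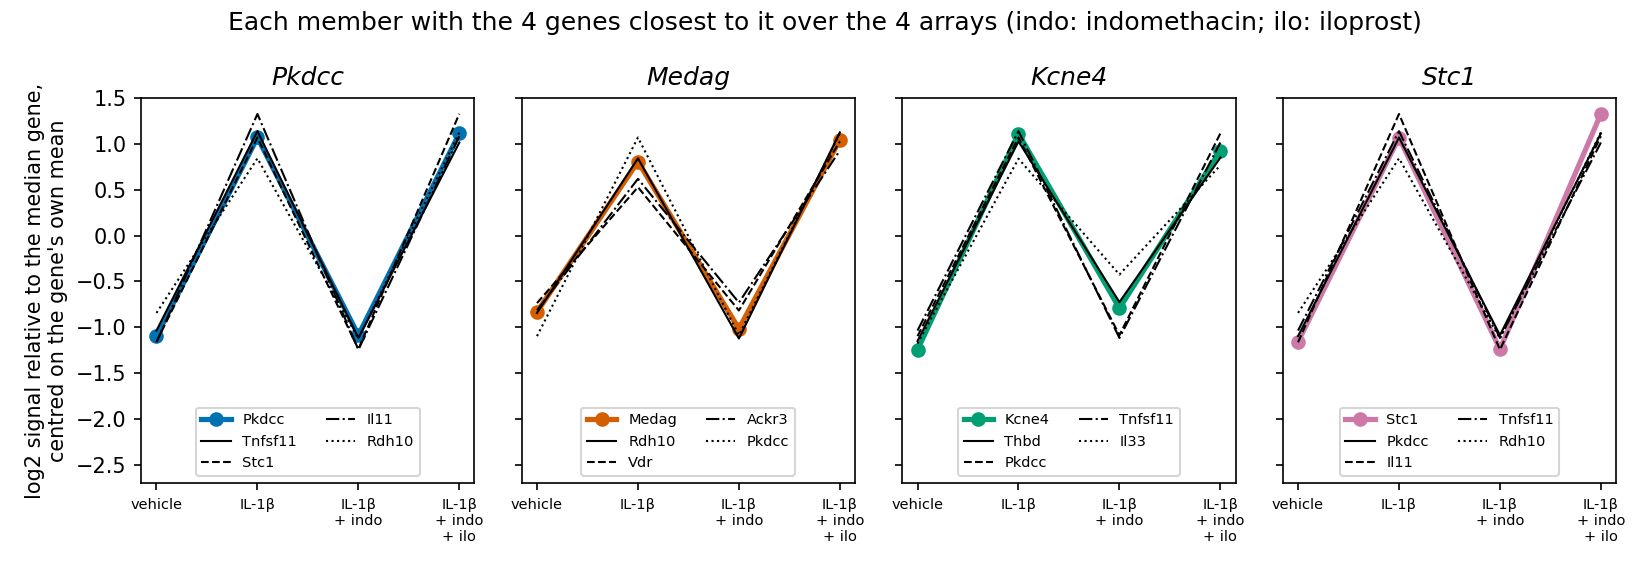
Log2 signal relative to the median gene and centred on the gene's own mean (vertical axis) over the 4 arrays (horizontal axis), for each member in colour and its closest 4 genes in black. The closest curve differs from its member by 0.07 for Pkdcc and Medag, 0.08 for Kcne4 and 0.13 for Stc1.

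Among other genes of the members' own families, none that was measured showed this course. Relatives below the floor on every array could not show it. Of the Fam20 and VLK family of secreted kinases, 4 genes besides Pkdcc were measured in each of the IL-1β, indomethacin and iloprost comparisons. Past 2-fold there were 0, but Fjx1, below the floor with vehicle and with iloprost, had only bounds for IL-1β and iloprost. Few of all genes passed 2-fold in these comparisons, at most the 3.19% lower with iloprost, so 0 of 4 is no contrast with Pkdcc. Fam20b, a kinase of proteoglycan linkers, read 166.0, 161.6, 142.4 and 107.2. Fam20c, the main kinase of secreted phosphoproteins, read 168.8, 199.7, 175.6 and 135.2, and like Fam20b was lowest with iloprost. Of 14 KCNE, KCNQ and KCNA channel genes with a probe set (the list also holds Kcnma1), only Kcne4 was above the floor on any array. Kcne1, Kcne2, Kcne3 and Kcne1l, the other KCNE subunits measured, and Kcnq1, a channel that KCNE proteins bind, were below the floor on all 4. Stc2, the other stanniocalcin, read 21.5, 19.5, 15.5 and 20.8 and was below the floor throughout.

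Among the other genes of calcium and phosphate handling, 4 were measured with IL-1β against vehicle and 2 were at least 2-fold higher. Of all genes, 1.72% were higher in that comparison. Slc20a1, a phosphate transporter, read 236.8, 969.8, 701.0 and 786.6, with log2 ratios of 1.81 for IL-1β, -0.32 for indomethacin and 0.16 for iloprost. It was thus high on all 3 arrays with IL-1β. Vdr read 29.7, 105.8, 12.7 and 135.8, and was higher by at least 1.26 with IL-1β, lower with indomethacin by a ratio of at most -1.34, and higher by at least 1.84 with iloprost. Of 11 other adipogenesis regulators measured, 0 were past 2-fold with IL-1β or indomethacin. With iloprost 1 was higher, the lipid droplet gene Plin2 at 1.26, and 2 were lower, the lipase gene Lpl at -1.63 and the transcription factor gene Klf5 at -1.28. Of 5 hedgehog genes measured, the receptor gene Ptch1 was higher with IL-1β at 1.09, and 0 were past 2-fold with either drug.

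Targets and feedback genes of cAMP and CREB were counted as the wider pathway. This list was chosen with earlier results of these data known, and holds genes with the members' full course, such as Nr4a1, Crem and Thbd. Its counts therefore describe these arrays and give no test of the pathway. With IL-1β, 8 of 16 were at least 2-fold higher and 0 lower, where 1.72% of all genes were higher and 0.56% lower. The median log2 ratio was 0.78, where all genes had -0.02. With indomethacin, 7 of 17 were lower and 0 higher, where 0.663% of all genes were lower and 0.245% higher. The median was -0.32 against 0.00 for all genes. With iloprost, 6 of 17 were higher, as were 1.97% of all genes, with a median of 0.54 against 0.04 for all genes. The stress factor gene Atf3 was the 1 lower gene, at -2.02, where 3.19% of all genes were at least 2-fold lower. The nuclear receptor gene Nr4a1 read 34.1, 897.3, 75.8 and 548.6, and Crem, a cAMP-responsive transcriptional regulator, 68.0, 232.9, 90.6 and 375.5. Nr4a1 and Crem were thus high on the same arrays as the members. Ereg, an EGF receptor ligand on the same list, was not, with 37.5, 575.5, 440.4 and 264.4.

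Of the prostanoid genes, Ptgs2 read 457.4, 3797.9, 2547.2 and 2578.7, and its log2 ratio with indomethacin was -0.43 and with iloprost 0.01. Of 13 prostanoid genes measured in each comparison, 2 passed 2-fold upward under IL-1β, Ptgs2 and Ptger2, where 1.72% of all genes did. With indomethacin 1 was higher and 1 lower, where 0.245% of all genes were higher and 0.663% lower. With iloprost 1 was higher and 3 lower, where 1.97% of all genes were higher and 3.19% lower. The iloprost receptor gene Ptgir read 158.8, 167.8, 211.2 and 83.0. The prostaglandin E receptor gene Ptger4 read 346.0, 379.4, 785.7 and 227.9, high with indomethacin and lowest with iloprost, opposite to the members under the drugs, while its ratio with IL-1β against vehicle was -0.10. Ptgfr, the prostaglandin F receptor gene, went with the members under the drugs, with 108.8, 142.7, 63.4 and 198.9 and log2 ratios of -1.02 with indomethacin and 1.64 with iloprost, but stood at 0.16 with IL-1β. Ptger2 read 17.8, 130.6, 84.2 and 73.7, while Ptger1 and Ptger3 were below the floor on all arrays.

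Fibroblast and macrophage markers were both present. All 11 fibroblast markers, among them the collagen genes Col1a1 and Col1a2, were above the floor on every array, as were 11 of 12 macrophage markers, among them Csf1r and Lyz2. Summed signals scaled to the median gene were 24914, 22890, 23533 and 24668 for fibroblast markers and 23787, 23512, 22073 and 20840 for macrophage markers, in the order vehicle, IL-1β, indomethacin and iloprost. The sums are led by the brightest markers, and single markers could differ from them. Among macrophage markers, Cd14 read 4308.0, 6259.1, 4253.7 and 6561.6, while Fcgr1 read 691.2, 714.5, 737.9 and 269.0. Whether the mix of cells had a part in the members' course was not tested. With iloprost against indomethacin, macrophage markers had a median log2 ratio of -0.39, with 1 of 11 at least 2-fold lower, where 3.19% of all genes were. Fibroblast markers had a median of 0.04, with 0 of 11 past 2-fold. The part of the macrophage markers' course in the iloprost values was not tested. Of 6 endothelial and 5 lymphocyte markers measured, 0 were above the floor on any array, and of 6 chondrocyte and 4 adipocyte markers 1 each was, Comp and Fabp4. Which of the cells carried the members' RNA was not measured, and fewer cells of a type cannot be told apart from less RNA per cell.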

How the data were processed

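The authors deposited intensity values on a linear scale for 4 arrays, from 0 to 7857, with a single value for each probe set. Labelling and hybridisation followed the manufacturer's standard Affymetrix protocols, per the labels. How the authors summarised, background-corrected and scaled the probes is not given in the sources used. The number of arrays limits the precision.

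Of 22690 probe sets, 20380 name 1 gene in the platform's annotation, which can be old, and 691 name several. The 64 control probe sets and all others were not used. Symbols looked up by gene number in the RefSeq table (GRCm38.p6) changed for 0 probe sets, and that table gave names only. For a gene with several probe sets, that of the highest mean log2 signal was used. With 1 of a pair of arrays at the floor a ratio is a bound, and with both there is none. Bounds past 2-fold count as past 2-fold. With 1 array per group there is no test and no p-value.

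The members and gene lists were chosen with earlier results of these data known. Named genes are the members, the closest 4 genes of each, family members, prostanoid receptors and Ptgs2, 2 markers a cell type, and up to 4 list genes past 2-fold. Uap1 and Procr, genes with the members' full course, and Kcnq1, Slc20a1, Ereg and the other list genes given as contrasts, were named after their values were seen. Ratios and counts were checked on simulated data. Calculations used Python 3.11.15, pandas 2.3.3 and numpy 2.4.6, and figures matplotlib 3.10.9.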

Additional observations from a re-analysis of the deposited data

How the results depend on the processing

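Member ratios were recomputed on the scale as deposited, with quantile normalisation, with scaling to a 2% trimmed mean, with the floor at the 35th or 65th percentile, without a floor as log2(signal + 16), and with the probe sets of a gene averaged. In the comparisons that chose the members, all 4 kept their direction under each setting. With the floor at the 65th percentile Stc1 missed 2-fold with IL-1β, at a bound of 0.99, so 3 of 4 members were past 2-fold there. Of 159 recomputed ratios, 127 moved by less than the SD between probe sets and 32 by more. The ratio with IL-1β ran from 1.74 to 2.39 for Pkdcc, 1.55 to 1.87 for Medag, 1.32 to 2.58 for Kcne4 and 0.99 to 2.46 for Stc1, with the lowest values for Pkdcc, Kcne4 and Stc1 at the higher floor, where more signals are bounds. The count of genes with the members' full course was 31, and 18 after raising the floor to the 65th percentile, which leaves fewer genes measured. Under the other settings it ran from 30 to 43. The recomputation of the closest genes without a floor, and of the shares of the IL-1β rise as deposited, was added after the data were seen. Signals near or below the floor limit Stc1, Kcne4 and the dimmer Pkdcc probe set most. No paired analysis was possible because each group has 1 array.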
